A study of Homo sapiens with 2 samples.

Results

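The genes described here build, bound and supply the acid compartment of the cell: 30 genes for lysosome acidification, the lysosomal membrane and autophagy, chosen by symbol from a list and all found among the 36601 genes of the count table. They comprise 14 subunits of the vacuolar ATPase, 4 lysosomal membrane proteins, 4 lysosomal hydrolases and 8 autophagy genes with their MiT/TFE regulators, and cathepsins were not included. The RNA came from HT1080, an established human fibrosarcoma line labelled wild type, grown as spheroids of 2000 cells. About 50 spheroids per sample invaded 500 µl of collagen for 72 h. One culture (4B4) received 2 µg/ml of the antibody 4B4, which blocks the β1 subunit of integrin adhesion receptors. The other (control) carries the treatment label control, which names no other antibody. Each group is 1 single-cell library of 1 line, so culture, library and antibody cannot be told apart, and no test, p-value or standard error can be given.

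Lysosomes digest material that arrives by endocytosis or inside autophagosomes, and their enzymes need an acid lumen. The vacuolar ATPase (V-ATPase) supplies it: the cytosolic V1 sector hydrolyses ATP, and the V0 sector in the membrane carries protons across. In autophagy, small ubiquitin-like proteins of the LC3 and GABARAP families are coupled to lipid on the growing autophagosome, where cargo receptors such as p62 (SQSTM1) bind them. TFEB and TFE3 are basic helix-loop-helix factors that can switch on many of these genes through a promoter element built around an E-box, and the kinase complex MTORC1 on the lysosome holds them in the cytosol when nutrients are plentiful.

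The control library held 3402 kept cells with a median of 32914 unique molecular identifiers (UMIs) per cell, and the 4B4 library 1385 kept cells with a median of 68556. Of cells thinned to equal depth, 19.3% of control and 6.25% of 4B4 cells were scored as G2M phase. Levels are given as UMIs summed over kept cells per 1000000 UMIs of the library (UPM), and ratios as log2 of 4B4 over control with 95% counting intervals. Those intervals cover counting error only. The mesenchymal markers VIM (1830 UPM in control, 1392 UPM in 4B4), FN1, CD44, LGALS1 and CDH2 were all present. The markers of other cell types were at 6.05 UPM or less in either library, with KRT5 at 0, except PECAM1 at 30.3 UPM in control and 45.8 UPM in 4B4.

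The letters that TFEB and TFE3 are known to read stood in some of these promoters. RefSeq promoter windows (250 bases before to 50 after a start, GRCh38.p14) matched 23 of the 30 genes, all but ATP6V0E1, ATP6V1A, ATP6V1B2, ATP6V1H, LAMP2, HEXA and ASAH1. The E-box CACGTG, which reads the same on both strands, was found in at least 1 window of 6 of the 23 genes (26.1%; 29 windows) and of 8.77% of all 27305 genes with windows. With 1 more base on each side, TCACGTGA was found in 4 of them (17.4%) and in 1.18% of all genes. The shorter motif is contained in the longer one. The 6 promoters are shown because they are the ones with the motif; each stretch is printed 5′ to 3′ on the gene's strand, with the longest motif at each place before the start in capitals:
ATP6V1G1: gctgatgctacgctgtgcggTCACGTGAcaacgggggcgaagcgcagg
MCOLN1: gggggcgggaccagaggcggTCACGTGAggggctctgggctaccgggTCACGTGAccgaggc
ATP6V0D1: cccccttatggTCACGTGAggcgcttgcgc
LAMP1: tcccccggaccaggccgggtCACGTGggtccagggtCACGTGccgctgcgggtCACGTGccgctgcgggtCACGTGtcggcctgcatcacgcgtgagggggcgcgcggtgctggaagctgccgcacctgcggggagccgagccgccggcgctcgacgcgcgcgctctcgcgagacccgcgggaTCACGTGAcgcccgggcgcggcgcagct
ATP6V0B: ggtCACGTGgtaccggcgcatCACGTGggc
NEU1: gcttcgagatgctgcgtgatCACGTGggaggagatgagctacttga

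The ATP6V1G1 stretch lies at chr9:114587690-114587737 (plus strand), with the first base of its motif 59 bases before the RefSeq start. That of MCOLN1 is at chr19:7522562-7522623 (plus strand), with motifs 42 and 15 bases before the start. ATP6V0D1 (chr16:67481199-67481228, minus strand) has its copy 60 bases before. LAMP1 (chr13:113297027-113297237, plus strand) has 5 copies in the stretch shown, from 192 to 29 bases before the start, more than any other of the 6. ATP6V0B (chr1:43974900-43974929, plus strand) has a pair of copies 57 and 39 bases before the start. The copy in NEU1 (chr6:31862922-31862967, minus strand) is 126 bases before it. The stretches of ATP6V0B and ATP6V0D1 lie before the RefSeq start used but inside the span of their genes in GENCODE 29. A match is a description of letters and not a measured binding site.

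The ratios of the genes with and without an E-box overlapped. The 6 with one had a median log2 ratio of 0.23, from 0.18 to 0.40, and the 17 matched genes without one had a median of 0.27, from -0.12 to 0.57. A second motif, TGACNNNGC, searched on both strands as the core of the antioxidant response element, was found in 7 of the 23 genes (30.4%) and in 16.1% of all genes, counted the same way. SQSTM1 was not among those 7, which says only that these letters are not in its window.

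Lysosomal and autophagy RNAs made up a larger share of the 4B4 library, by a small amount spread over most of the list. All 30 genes were measured (5 UPM or more in either library), and 29 of them were higher in 4B4, against 5469 of 11359 measured genes in the whole table. Their median log2 ratio was 0.23, while that of all measured genes was -0.01. None reached a 1.5-fold difference with the interval on the same side of 1, in either direction. Of all measured genes 2.1% did so upward in 4B4 and 5.82% downward. At a smaller bound, a level 25% above that of the other library, 8 of the 30 genes were higher in 4B4 and 0 lower, beside 8.94% of all measured genes higher and 13.3% lower. The 8 were ATP6V0C, ATP6V1E1, ATP6V1G1, ATP6AP1, MCOLN1, SQSTM1, GABARAP and GABARAPL2. Summed over the 30 genes, the level was 4205 UPM in control and 5297 UPM in 4B4, a log2 ratio of 0.33 (interval 0.33 to 0.34). Abundant genes weigh most in this and the other sums. The most abundant of the 30 were GABARAP (638 UPM in control, 948 UPM in 4B4) and SQSTM1 (507 and 714 UPM).

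**Figure D1:**
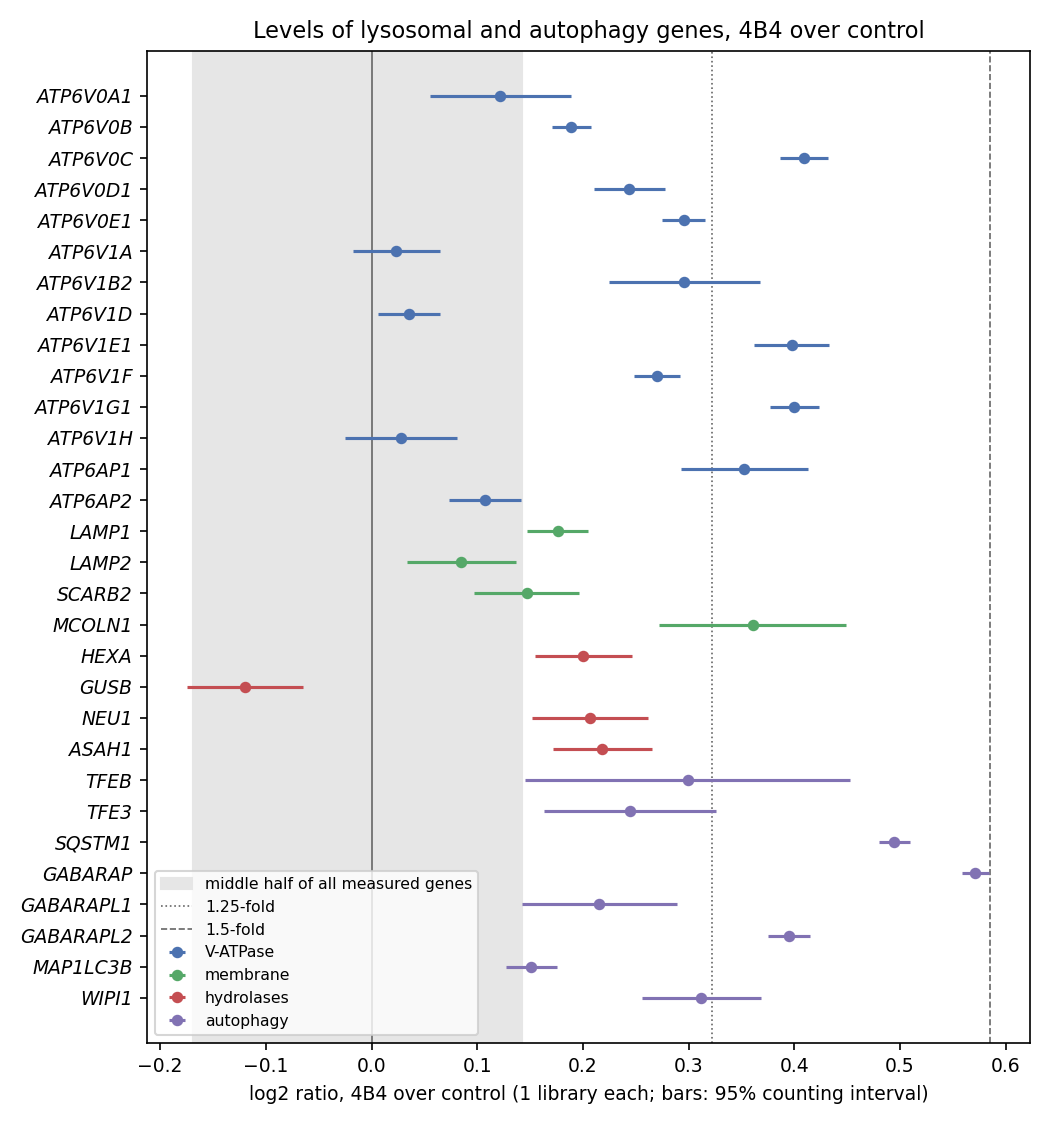
Log2 ratio of the level of each of the 30 genes, 4B4 over control (1 library each), with 95% counting intervals as bars and colours for the 4 groups; the grey band is the interquartile range of all measured genes, and dotted and dashed lines mark levels 25% and 1.5-fold higher. GUSB at -0.12 is the only gene left of 0, and GABARAP at 0.57 lies nearest the 1.5-fold line.

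Among the V0 subunits, which form the proton ring and proton path in the membrane, all 5 were higher in 4B4 and the sector's median log2 ratio was 0.24. ATP6V0C, the proteolipid of the rotating ring, was at 215 UPM in control and 285 UPM in 4B4, a log2 ratio of 0.41 (0.39 to 0.43). It lies at chr16:2513870-2520218 on the plus strand (GENCODE 29, GRCh38), where 3 other annotated genes overlap it on the same strand. ATP6V0E1, a small membrane subunit, was at 292 UPM in control and 358 UPM in 4B4 (0.30; 0.28 to 0.32). The other ring proteolipid, ATP6V0B, had 365 UPM in control and 417 UPM in 4B4 (0.19; 0.17 to 0.21). ATP6V0D1, which links the ring to the central stalk, had 108 UPM and 128 UPM (0.24; 0.21 to 0.28). The a1 subunit ATP6V0A1, which forms the proton path beside the ring, differed least, with 28.7 UPM in control and 31.2 UPM in 4B4 (0.12; 0.06 to 0.19), and its ratio was -0.06 in G1 cells alone.

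The V1 sector was uneven. ATP6V1E1 and ATP6V1G1, which pair in the peripheral stalks that hold the sector in place, had almost equal ratios. ATP6V1E1 (chr22:17592136-17628818, minus strand) was at 93.0 UPM in control and 122 UPM in 4B4, a log2 ratio of 0.40 (0.36 to 0.43), and ATP6V1G1 (chr9:114587746-114598373, plus strand) at 215 UPM and 284 UPM, a log2 ratio of 0.40 (0.38 to 0.42). ATP6V1F of the central stalk was at 250 UPM in control and 301 UPM in 4B4 (0.27; 0.25 to 0.29). ATP6V1B2, the B subunit of the catalytic head, was at 23.7 UPM and 29.04 UPM (0.30; 0.22 to 0.37). Its partner in the head, the ATP-hydrolysing A subunit ATP6V1A, was at 76.5 UPM in control and 77.8 UPM in 4B4 (0.02; -0.02 to 0.06). ATP6V1H, a regulatory subunit, was at 47.2 UPM and 48.2 UPM (0.03; -0.03 to 0.08), and ATP6V1D of the central stalk at 149 UPM and 153 UPM (0.04; 0.01 to 0.07). The 3 last named hardly differed between the libraries, and the intervals of ATP6V1A and ATP6V1H included 0. In G1 cells alone ATP6V1A and ATP6V1H were at -0.10 and -0.10, and with mitochondrial and ribosomal protein genes left out of the total, ATP6V1D was at -0.0040.

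Both accessory subunits were higher in 4B4. ATP6AP1, which takes part in assembling the V0 ring (chrX:154428632-154436516, plus strand), was at 32.5 UPM in control and 41.5 UPM in 4B4 (0.35; 0.29 to 0.41). ATP6AP2, also known as the prorenin receptor, was at 108 UPM and 116 UPM (0.11; 0.07 to 0.14), with a ratio of -0.0028 in G1 cells and 0.40 among cells of 20000 to 60000 UMIs. Summed over all 14 subunits the pump had 2004 UPM in control and 2392 UPM in 4B4, a log2 ratio of 0.26 (0.25 to 0.26).

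Other genes of the pump and its assembly moved less as a list. Of 19 listed, 12 were measured, and 2 of these were higher by 25% or more, with a median log2 ratio of 0.09. Beside this count and those of the further lists below, 8.94% of all measured genes were higher by that much and 13.3% lower. RNASEK, a small subunit of the pump, was at 477 UPM in control and 614 UPM in 4B4 (0.37). DMXL2, part of the complex that rejoins V1 to V0, was at 14.4 UPM and 19.8 UPM (0.47), and its partner ROGDI at 7.28 UPM and 9.03 UPM (0.31). The alternative a-subunit TCIRG1 was at 16.8 UPM and 20.2 UPM (0.27).

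The lysosomal membrane genes were all higher in 4B4, by small amounts. LAMP1 and LAMP2, the heavily glycosylated proteins that line the lysosome, were at 154 UPM and 47.9 UPM in control. In 4B4 they were at 173 UPM and 50.8 UPM, log2 ratios of 0.18 (0.15 to 0.20) and 0.09 (0.03 to 0.14), although LAMP2 was at 0.00027 in G1 cells alone. SCARB2, an abundant protein of the lysosomal membrane, was at 50.7 UPM in control and 56.2 UPM in 4B4 (0.15; 0.10 to 0.20). MCOLN1, the lysosomal calcium channel, stood apart from these with 15.1 UPM in control and 19.4 UPM in 4B4 (0.36; 0.27 to 0.45). Its locus (chr19:7522626-7534009, plus strand) overlaps PNPLA6 on the same strand, and how reads of the shared stretch were counted or left out was not examined. Of 26 further genes of the lysosomal membrane 23 were measured and 1 was higher by 25% or more, CD68, with 26.5 UPM in control and 38.4 UPM in 4B4 (0.54). The median of that list was 0.13. The cystine exporter CTNS, at 14.7 UPM and 18.0 UPM (0.29), the chloride transporter subunit OSTM1, at 50.3 UPM and 60.6 UPM (0.27), and SIDT2, at 6.20 UPM and 7.47 UPM (0.27), came next.

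Of the 4 hydrolases, 3 were slightly higher and 1 slightly lower in 4B4. HEXA, a subunit of the hexosaminidase that degrades gangliosides, was at 58.8 UPM in control and 67.5 UPM in 4B4 (0.20; 0.15 to 0.25). ASAH1, acid ceramidase, was at 55.6 UPM and 64.7 UPM (0.22; 0.17 to 0.27), and the sialidase NEU1 at 41.7 UPM and 48.1 UPM (0.21; 0.15 to 0.26). GUSB, the β-glucuronidase often used as a reference gene, was the one member lower in 4B4, with 46.4 UPM in control and 42.7 UPM in 4B4 (-0.12; -0.17 to -0.06). Its direction was not fixed: the ratio was 0.02 in thinned cells and 0.13 in cells of 20000 to 60000 UMIs.

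Larger ratios were found among hydrolases outside the 30. Of 31 others found, 29 were measured, 8 were higher by 25% or more and 0 lower, and their median was 0.22. The acid phosphatases ACP2 and ACP5 had the largest. ACP2 was at 21.0 UPM in control and 31.4 UPM in 4B4, and ACP5 at 9.13 UPM and 13.6 UPM, both with a log2 ratio of 0.58. PSAP, the precursor of the saposins that help hydrolases reach their lipids, was at 161 UPM and 223 UPM (0.47), and the sulfatase ARSA at 8.32 UPM and 11.3 UPM (0.44). Genes that deliver enzymes to the lysosome had a median of 0.09, with 2 of 25 higher by 25% or more, beside 8.94% of all measured genes. GNPTG, a subunit of the enzyme that makes the mannose 6-phosphate tag, was at 33.4 UPM and 50.0 UPM (0.58). HPS1, which acts in making lysosome-related organelles, was at 36.6 UPM and 46.1 UPM (0.33). VPS18 of the tethering complexes was at 19.7 UPM and 23.8 UPM (0.27).

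The autophagy genes held the largest differences of the 30. Their summed level was 1732 UPM in control and 2382 UPM in 4B4, a log2 ratio of 0.46 (0.45 to 0.47), and the median over the 8 was 0.31. GABARAP, an LC3 relative that acts late in autophagosome formation, was at 638 UPM in control and 948 UPM in 4B4, a ratio of 1.49 or 0.57 on the log2 scale (0.56 to 0.58). It is encoded at chr17:7240014-7242770 on the minus strand, where 1 other annotated gene overlaps it on that strand. GABARAPL2, its close relative at chr16:75566351-75577881 (plus strand), was at 291 UPM in control and 383 UPM in 4B4 (0.39; 0.37 to 0.41). MAP1LC3B, the LC3 protein most used as a marker of autophagosomes, differed less, with 211 UPM and 235 UPM (0.15; 0.13 to 0.18); its near-identical copy MAP1LC3B2, at 2.76 UPM and 2.63 UPM, may share reads with it. GABARAPL1 was at 23.2 UPM in control and 27.0 UPM in 4B4 (0.22; 0.14 to 0.29), and its ratio in G1 cells alone was 0.05 (-0.03 to 0.13). The ubiquitin-like genes thus differed among themselves from 0.15 to 0.57.

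SQSTM1, the cargo receptor p62 (chr5:179806398-179838078, plus strand), was at 507 UPM in control and 714 UPM in 4B4, a log2 ratio of 0.49 (0.48 to 0.51). WIPI1, which binds phosphoinositide on the forming autophagosome, was at 37.7 UPM and 46.9 UPM (0.31; 0.26 to 0.37), but at 0.06 in G1 cells alone. The regulators were scarce. TFE3 was at 18.6 UPM in control and 22.03 UPM in 4B4 (0.24; 0.16 to 0.33). TFEB was at 5.16 UPM, close to the bound for a measured gene, and at 6.35 UPM in 4B4 (0.30; 0.15 to 0.45), with a ratio of 0.09 (-0.08 to 0.27) in G1 cells alone. The deposited counts are of RNA and carry no measure of where these factors sat in the cell.

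Of the other factors of the same family, MITF was lower in 4B4. It was at 7.20 UPM in control and 4.78 UPM in 4B4 (-0.59; -0.74 to -0.44), the only gene among the further lists that was 1.5-fold lower. TFEC was under 1 UPM in both libraries, too low for a ratio. GPNMB, a lysosomal glycoprotein known as a target of this family, was at 31.4 UPM and 41.3 UPM (0.39). In the list of MTORC1 and MiT/TFE control, 27 genes were measured, 4 were higher by 25% or more and 3 lower, and the median was 0.01. RRAGA, a GTPase that recruits MTORC1 to the lysosome, was at 108 UPM and 155 UPM (0.52). The sestrins SESN1 and SESN2, stress-induced inhibitors of MTORC1, were lower: SESN1 at 21.2 UPM and 15.7 UPM (-0.43), SESN2 at 11.1 UPM and 8.05 UPM (-0.47).

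Genes of autophagosome formation outside the 30 differed little between the libraries. Of 34 measured, 1 was higher by 25% or more and 2 lower, with a median of 0.04. WDR45, a relative of WIPI1, was at 54.4 UPM in control and 71.1 UPM in 4B4 (0.39), and ATG9A, the scramblase of the membrane source, at 15.7 UPM and 18.8 UPM (0.27). VMP1, which acts at the endoplasmic reticulum, was at 192 UPM and 152 UPM (-0.33), and the tether EPG5 at 22.1 UPM and 16.04 UPM (-0.47). Among cargo receptors other than SQSTM1, 4 of 15 measured were higher by 25% or more and the median was 0.11. Of these FKBP8 and BNIP3L are receptors on mitochondria, at 180 UPM and 94.1 UPM in control and 243 UPM and 118 UPM in 4B4 (0.44 and 0.33). CCPG1, a receptor for the endoplasmic reticulum, was at 80.9 UPM and 104 UPM (0.37), and TOLLIP, a ubiquitin-binding receptor, at 18.2 UPM and 24.4 UPM (0.43). Over all further lists together, 22 of 165 measured genes were higher by 25% or more and 5 lower, with a median of 0.10. Of all measured genes, 8.94% were higher by that much and 13.3% lower.

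Single cells showed the same direction at equal depth. Each cell was thinned at random to 17000 UMIs, which left 3099 control and 1311 4B4 cells and set aside 303 and 74 shallower ones. A control cell then held a median of 69 UMIs of the 30 genes (quartiles 56 and 85) and a 4B4 cell 87 (72 and 103). Of the 4B4 cells, 79.3% lay above the control median, and 49.2% of control cells did. Before thinning the medians were 132 and 337 UMIs, since the 4B4 cells were deeper.

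The autophagy group shifted most per cell, from a median of 27 UMIs (quartiles 21 and 36) in control to 38 (28.5 and 48) in 4B4, and 77.4% of 4B4 cells lay above the control median. V-ATPase UMIs had medians of 33 and 39, membrane genes 4 and 5, and hydrolases 3 and 4. The distributions of the libraries overlapped broadly in every group.

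**Figure D2:**
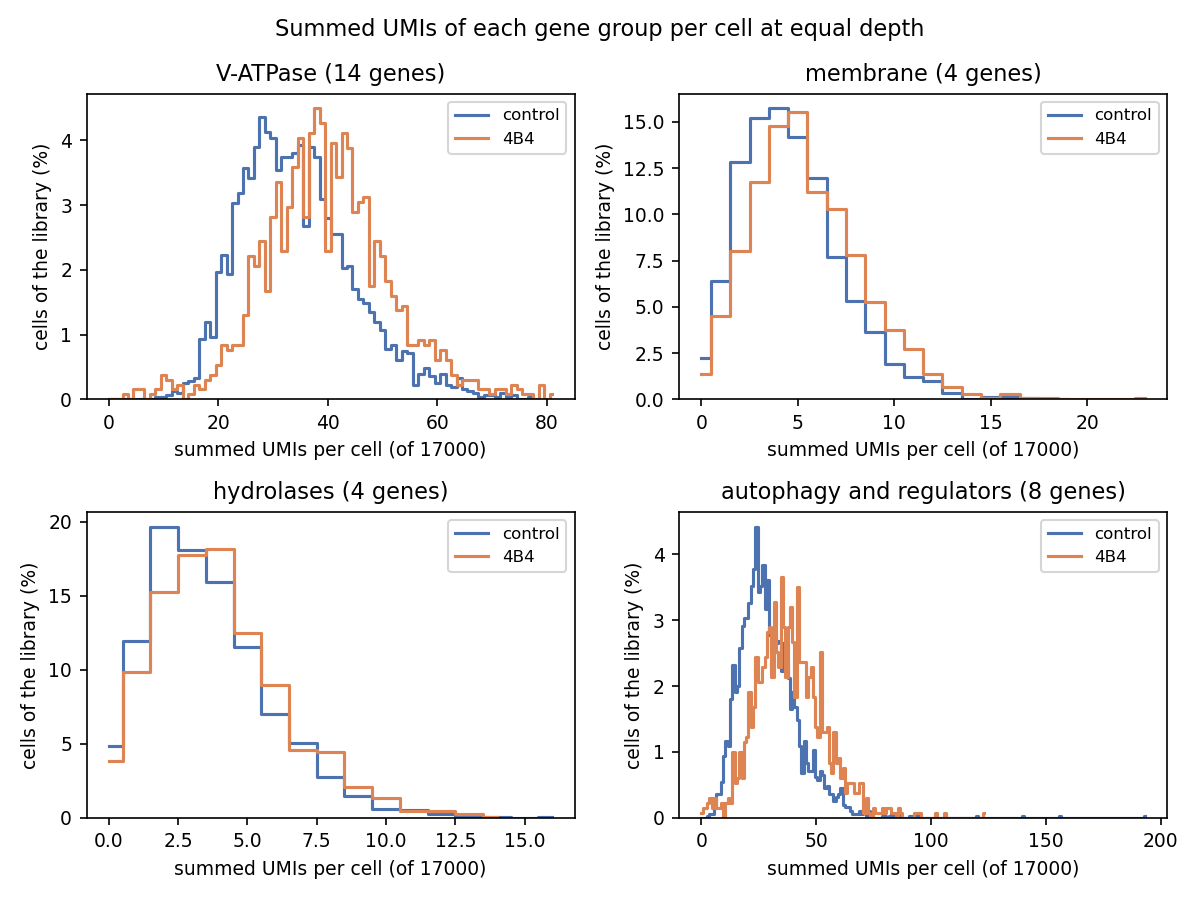
Distribution over cells of the summed UMIs of each gene group, with every cell thinned to 17000 UMIs; the horizontal axes give UMIs per cell, the vertical axes the percent of the library's cells, and blue and orange are control and 4B4. The 4B4 curve is displaced to the right for autophagy genes (medians 27 and 38) and the V-ATPase (33 and 39), and the curves nearly coincide for the hydrolases (3 and 4).

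The share of cells with at least 1 UMI differed most for genes of middle level. ATP6V1E1 was detected in 76.1% of thinned control cells (74.6 to 77.6%) and 85.7% of thinned 4B4 cells (83.7 to 87.6%), the widest gap of the 30. ATP6AP1 came next with 41.4% (39.7 to 43.2%) and 49.9% (47.1 to 52.6%). WIPI1 was detected in 43.8% of control and 50.0% of 4B4 cells, and ASAH1 in 60.3% and 66.4%.

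HEXA was detected in 59.9% of control and 65.6% of 4B4 cells, SCARB2 in 57.1% and 62.6%, and GABARAPL1 in 30.4% and 35.9%. MCOLN1 was found in 21.5% (20.1 to 23.0%) and 26.5% (24.2 to 29.02%), and TFEB, the rarest, in 8.003% (7.07 to 9.01%) and 10.7% (9.06 to 12.5%). Before thinning TFEB was found in 16.3% and 36.3% of cells, and ATP6V1E1 in 89.5% and 95.1%. ATP6V1A, whose level hardly differed, was found in 66.1% and 65.8%. These 2 libraries hold no cell type that should lack such genes, so a background share from free RNA could not be read, and its part in the shares and in phase calls was not tested.

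For the abundant genes the share had little room to move, and for some it went the other way from the level. GABARAP was detected in 99.4% of thinned control cells (99.0 to 99.6%) and 98.2% of thinned 4B4 cells (97.4 to 98.9%), and ATP6V0B in 98.8% and 97.6%. No order is read from these shares. Unthinned, GABARAP was found in 99.1% of control and 96.6% of 4B4 cells even though the 4B4 cells were deeper.

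**Figure D3:**
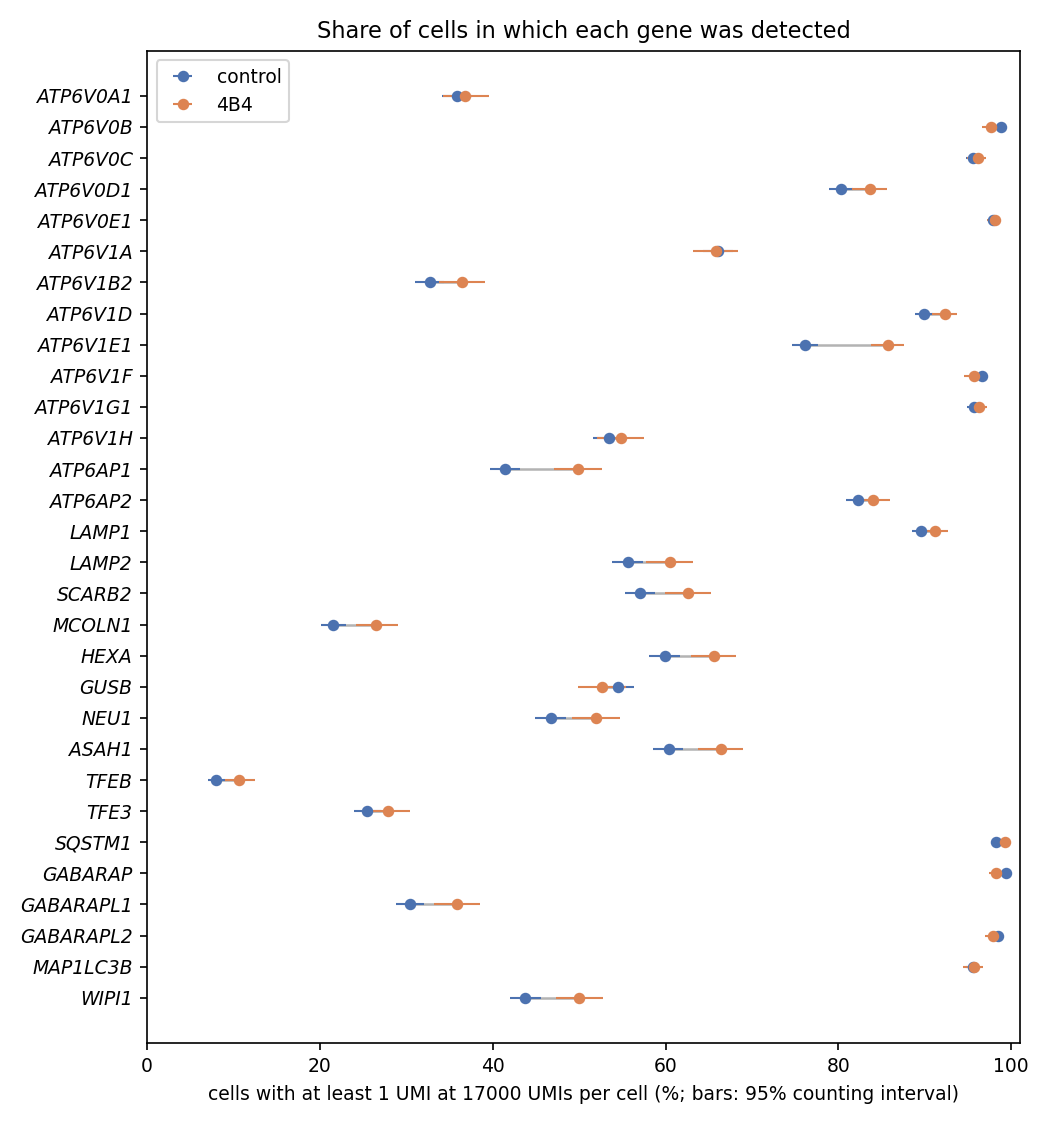
Percent of cells with at least 1 UMI of each of the 30 genes after thinning each cell to 17000 UMIs, in control (blue) and 4B4 (orange), with 95% counting intervals as bars. The gap is widest for ATP6V1E1 (76.1% and 85.7%) and ATP6AP1 (41.4% and 49.9%), and the most abundant genes lie near 100% in both libraries.

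SQSTM1 was unusually uneven among cells. At equal depth its variance over mean was 8.82 in control and 7.55 in 4B4, against medians of 1.95 and 2.63 for genes of like mean. The highest cell held 172 of its 17000 UMIs as SQSTM1 in control and 117 in 4B4. The 1% of cells with the most SQSTM1 carried 7.18% and 5.73% of its UMIs, and without those cells its ratio was 0.52. GABARAP was also spread widely (4.39 and 5.43, against 2.29 and 2.86), while ATP6V0C (1.45 and 1.60, against 1.48 and 1.71) and LAMP1 (1.43 and 1.48, against 1.41 and 1.51) varied like genes of their level.

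HMOX1, which encodes the haem-degrading enzyme induced by oxidative stress, was set beside SQSTM1 because both are known targets of the factor NRF2. HMOX1 was at 23.2 UPM in control and 107 UPM in 4B4. In control, the 667 thinned cells with an HMOX1 UMI held a mean of 11.3 SQSTM1 UMIs and the 2432 without one 7.64. In 4B4 the 669 cells with one held 14.2 and the 642 without one 10.1. The mean of SQSTM1 was higher in cells with an HMOX1 UMI in both libraries, and most other members shared this direction. In control the means of all members but ATP6V1A, ATP6AP2 and SCARB2 were higher in such cells, for example NEU1 (0.85 and 0.68). In 4B4 only ATP6V0A1, ATP6V1B2, LAMP2 and SCARB2 were lower in them, beside GABARAP, which hardly differed. The link was closest for SQSTM1, whose Spearman's rho with HMOX1 over thinned cells was 0.18 in control and 0.31 in 4B4. The highest among the other members was 0.10 in control (ATP6V0E1) and 0.13 in 4B4 (ATP6V0B). The part of NRF2 was not tested. GABARAP had means of 12.2 in cells with and 10.6 in cells without an HMOX1 UMI in control, and of 14.4 in both classes in 4B4. A cell without an HMOX1 UMI may still express it, and with HMOX1 at unequal levels the classes are not matched between the libraries; the part of free RNA in them was not tested.

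Across cells of 1 library the pump and the autophagy genes varied together. Spearman's rho between the summed V-ATPase and autophagy UMIs was 0.55 over 3099 thinned control cells and 0.54 over 1311 thinned 4B4 cells, and between V0 and V1 sums 0.38 and 0.36. The cells of a library share its preparation, so these are descriptions. Single genes tracked each other weakly: over 435 pairs the median rho was 0.05 in control and 0.04 in 4B4. The strongest pair was GABARAP with GABARAPL2 in control (0.32) and GABARAP with ATP6V1F in 4B4 (0.40).

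These RNAs made up a smaller share of the UMIs of cells scored as G2M in both libraries. G2M cells were also deeper, with median totals of 45218.5 UMIs in control and 98207 in 4B4, against 31707 and 69818 in G1, so a lower share is not a lower number per cell. From G1 to G2M cells the summed level went from 4604 to 3344 UPM in control (-0.46) and from 5435 to 4290 UPM in 4B4 (-0.34). All 30 genes were lower in G2M in control and 28 of 30 in 4B4, while the median of all measured genes was 0.05 and 0.13. SCARB2 and GUSB were the exceptions in 4B4. The difference was widest in the autophagy group. WIPI1 had a G2M over G1 ratio of -1.16 in control and -0.56 in 4B4, GABARAPL1 -0.92 and -0.71, GABARAP -0.86 and -0.64, and SQSTM1 -0.83 and -0.29. In S cells 29 of 30 genes were below their G1 level in control and 27 in 4B4.

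Because the 4B4 library held more G1 cells (87.9%, against 68.0% in control), the libraries were also compared within phases. Within G1 the summed level was 0.24 higher in 4B4 on the log2 scale, within S 0.30 and within G2M 0.36. The median over the 30 genes was 0.13 in G1 cells alone, with 25 above 0 and 4 higher by 25% or more, and 0.23 with the phases weighing the same. The medians of all measured genes were 0.0014 and 0.05, and their share at the 25% bound was not counted there. GABARAP was at 744 UPM in control and 996 UPM in 4B4 in G1 cells (0.42), and SQSTM1 at 587 UPM and 725 UPM (0.31). In those cells the ratios of ATP6V1B2 (0.19), ATP6V0D1 (0.11), LAMP1 (0.08), HEXA (0.06), MAP1LC3B (0.06) and ATP6V1D (0.02) were also smaller than over all kept cells by over 1.5 times. The phases are ranges of a score and not cell types, and the S and G2M cells of 4B4 numbered 76 and 82.

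**Figure D4:**
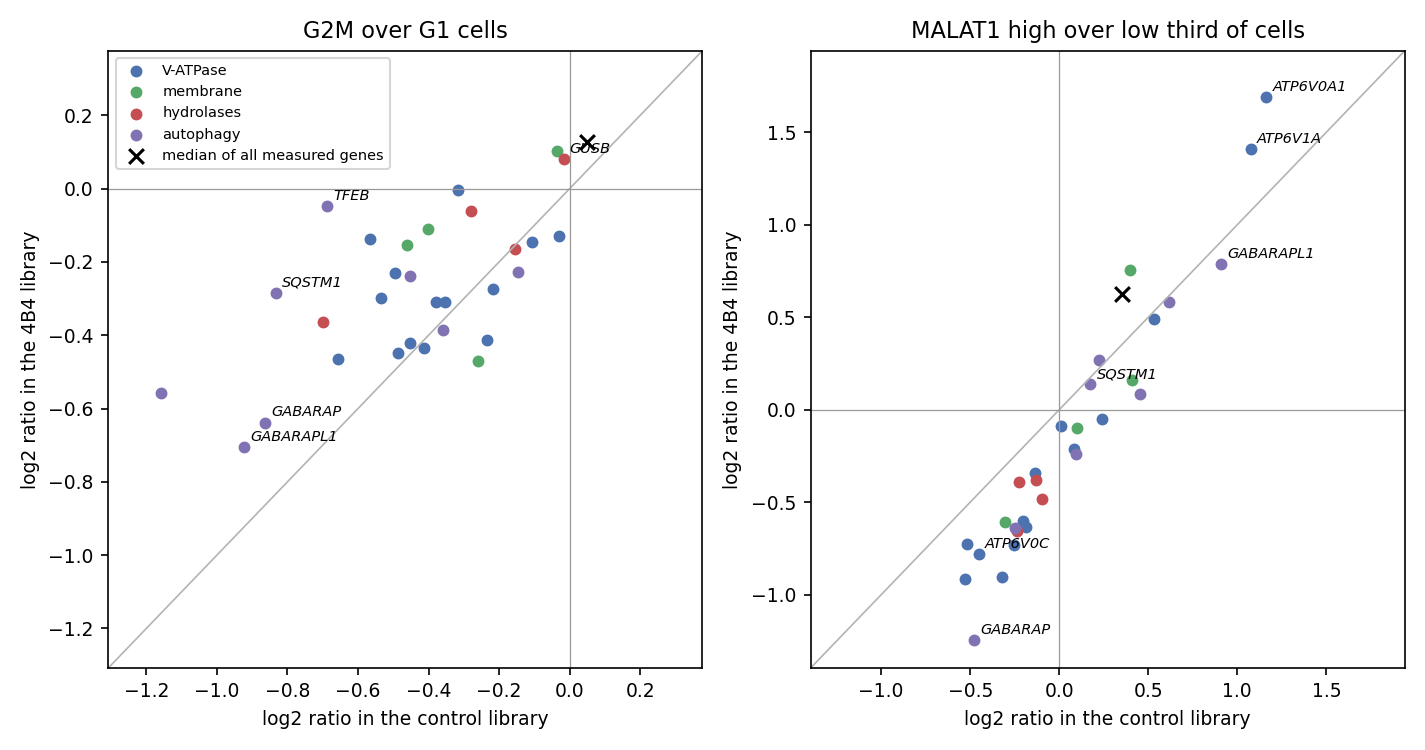
Ratio within each library of each of the 30 genes, control on the horizontal and 4B4 on the vertical axis (log2), for G2M over G1 cells on the left and for the cells with the highest over those with the lowest MALAT1 share on the right; the cross is the median of all measured genes and the diagonal marks equality. On the left all 30 points lie below 0 in control, and on the right ATP6V0A1 (1.16 and 1.69) is the highest in both libraries and GABARAP (-0.48 and -1.25) the lowest in 4B4.

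MALAT1, a long RNA kept in the nucleus, divided these genes into opposite sets. Kept cells of each library were ordered by the share of MALAT1 in their UMIs and cut into 3 equal tertiles. From the low to the high tertile, the median of all measured genes was higher by 0.35 in control and 0.63 in 4B4. The median over the 30 genes was -0.04 in control, with 15 below 0, and -0.29 in 4B4, with 20 below 0. Their summed level, which abundant genes weigh most in, was also lower (-0.15 and -0.47). For the 8 autophagy genes the sums were at -0.14 and -0.52, but the medians at 0.20 and 0.11. GABARAP had the lowest ratio in 4B4: in control it went from 814 to 584 UPM (-0.48) and in 4B4 from 1278 to 539 UPM (-1.25). ATP6V0A1 went the other way, from 17.6 to 39.4 UPM (1.16) and from 15.7 to 50.6 UPM (1.69). ATP6V1A, from 49.4 to 104 UPM (1.08) and from 43.7 to 116 UPM (1.41), and GABARAPL1 (0.91 and 0.79) were also higher in MALAT1-rich cells. So subunits of the same pump were on opposite sides, with ATP6V1F at -0.53 and -0.91 and ATP6V0D1 at -0.32 and -0.90.

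The difference between the libraries depended on this range of cells. The summed level was 0.41 higher in 4B4 in the low tertile, 0.43 in the middle one and 0.08 in the high one, where 19 of 30 genes were above 0. In the high tertile the V-ATPase sum was at 0.03, the hydrolases at -0.04, the membrane genes at 0.13 and the autophagy genes at 0.14. GABARAP was lower in 4B4 there, with 584 UPM in control and 539 UPM in 4B4 (-0.11; -0.14 to -0.09). SQSTM1 kept its difference in those cells, with 552 UPM and 768 UPM (0.48; 0.45 to 0.50). The tertiles were not equal in MALAT1 itself: its own level was 395.9 UPM in the low tertile of 4B4 and 1301 UPM in that of control, and over all kept cells 12606 and 12147 UPM. What MALAT1 share stands for in these cells was not tested.

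The size of the difference also varied with mitochondrial share. In cells with less than 10% mitochondrial UMIs the summed level was 0.39 higher in 4B4, and in those with 10 to 20% it was 0.17 higher. For the autophagy genes these values were 0.55 and 0.20, and for the membrane genes 0.18 and 0.28. GABARAP differed in direction between the libraries here, with a ratio of the second to the first range of 0.28 in control and -0.48 in 4B4. Among cells of 20000 to 60000 UMIs, the median depths were 33702 in control and 43835 in 4B4. There the summed level was 0.29 higher in 4B4, against 0.33 over all kept cells. The membrane genes were at 0.34 and the hydrolases at 0.24 (0.17 and 0.14 over all kept cells). The autophagy genes and the V-ATPase had smaller ratios there, 0.37 and 0.21 (0.46 and 0.26 over all kept cells). The GABARAP ratio was 0.36 there and 0.57 over all kept cells. The part of depth and of mitochondrial share in these results was not tested.

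**Figure D5:**
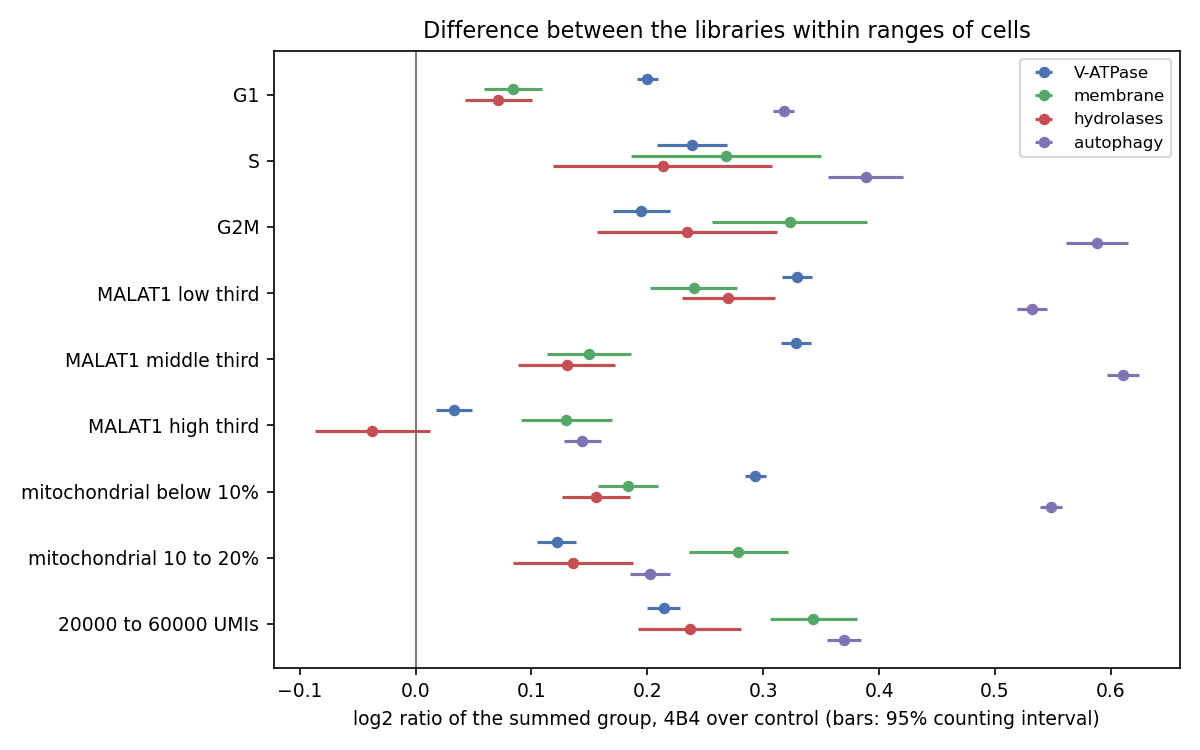
Log2 ratio of the summed level of each gene group, 4B4 over control, within ranges of cells (cell cycle phase, MALAT1 share, mitochondrial share and depth), with 95% counting intervals as bars. In the MALAT1-rich cells the autophagy group is at 0.14 and the hydrolases at -0.04, and in every range drawn the autophagy and V-ATPase groups lie above 0.

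The genes also differ in span, which runs with the ratio in the whole table. The median log2 ratio of all measured genes went from 0.13 in the shortest to -0.11 in the longest of 20 bins of genomic span. The 30 genes have a median span of 28.2 kb and the 8 higher by 25% or more 11.006 kb, against 36.4 kb for measured genes. After subtracting the median of each gene's bin, the 30 had a median of 0.22, 29 were above 0 and 7 higher by 25% or more. All measured genes were not counted at that bound after the subtraction, so the 7 are not read as particular to the 30. The GABARAP ratio was then 0.44 and that of SQSTM1 0.51.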

How the data were processed

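Single-cell RNA was measured in 2 cultures of HT1080 spheroids, grouped by their treatment labels. Values are deposited as raw counts of UMIs for each gene in each barcode. Per the file headers, Cell Ranger 7.1.0 produced them. GRCh38 and Seurat 5.0.1 are named in the submitters' processing notes without a role. Cells were freed from the gel by collagenase, then trypsin, per the labels' protocols. Not given in the sources used here are the gene annotation and whether intronic reads were counted.

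Kept were barcodes with 1000 or more genes and no more than 20% mitochondrial UMIs: 3402 of 3642 (127218114 UMIs) in control and 1385 of 1759 (116451080 UMIs) in 4B4. The libraries shared 2 barcodes, and doublets were neither called nor removed. Summed counts were divided by the library total, with exact Poisson intervals for levels, conditional binomial intervals for ratios and Clopper-Pearson intervals for shares, at 95%. PCR and cell sampling are outside these intervals. A gene was measured at 5 UPM and called at 1.5-fold with its interval on the same side of 1; 25% was a second bound. Shares, spread and rho used cells thinned to 17000 UMIs. Phases were scored with scanpy 1.11.5 from 43 S and 54 G2M genes. The calls were tested on simulated counts.

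The 30 genes, the further lists and the settings were chosen with earlier results of these data known. All 30 genes are named, with up to 4 measured genes of each further list by size of ratio, TFEC and MITF, and MALAT1, HMOX1 and GPNMB set beside them. The bins of span and level, and the examples drawn from within-library comparisons, were chosen after the values were seen. Some single genes of the further lists are not reported here. Positions are from GENCODE 29 and promoters from RefSeq (GRCh38.p14). Alternatives were other cell filters, thinned or equally weighted cells, TMM scaling (edgeR 4.0.16), a total without mitochondrial and ribosomal protein genes, G1 cells, equal phases, a depth band, cells with the most UMIs left out, and other floors.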

Additional observations from a re-analysis of the deposited data

How the results depend on the processing

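Of the 30 genes, 24 were higher in 4B4 under every one of the 12 settings run for ratios; the signs of ATP6V0A1, ATP6V1A, ATP6V1D, ATP6V1H, ATP6AP2 and GUSB turned under at least 1. All 48 medians of the 4 groups were above 0 under the settings run for groups, which did not include the bins of span and level. The ranges of MALAT1 and mitochondrial share are not among the 12 settings. In the high MALAT1 tertile 19 of 30 genes were above 0, and some of the 24 were below it, such as GABARAP (-0.11) and ATP6V0D1 (-0.15). The median log2 ratio of 0.231 over the 30 genes became 0.281 with the stricter cell filter (at least 2000 genes, at most 10% mitochondrial), 0.278 with TMM scaling, 0.276 in cells of 20000 to 60000 UMIs, 0.185 with each cell weighing the same and 0.127 in G1 cells alone; other settings gave 0.192 to 0.247. The count higher by 25% or more, 8, became 13 with the stricter filter, 5 when every cell counted equally and 4 in G1 cells alone. All measured genes were not counted at that bound under these settings, so the changes are not read as particular to the 30. The count at least 1.5-fold higher, 0, became 1, GABARAP, with the stricter filter and 1 with TMM scaling. Of all measured genes, 238 of 11359 were that much higher over all kept cells. The stricter filter gave 331 of 11368, TMM scaling 313 of 11363, equal cells 446 of 11578 and G1 cells 179 of 11187. The GABARAP ratio ran from 0.31 with each cell weighing the same to 0.75 with the stricter filter. The cause of these changes was not tested. The median of all measured genes lay between -0.05 and 0.06 under these settings. No paired analysis was possible because each group has 1 library and the labels give no replicate numbers. Depth limits TFEB and MCOLN1 most, whose shares of cells rest on few UMIs per cell, and 1 library per group leaves variation between cultures unknown.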
